A study of Mus musculus with 14 samples.

Results

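The MYC, MAX and MXD network was followed in RNA-seq libraries from the thymus of wild-type (WT) mice and of mice with T-cell acute lymphoblastic leukemia (T-ALL) driven by the oncogene Lmo2. The members were the 9 genes Myc, Mycn, Mycl, Max, Mxd1, Mxi1, Mxd3, Mxd4 and Mnt, taken by name from the 46946 genes of the count table, and each name matched a single row. All 9 were measured, 8 of them passed the filter on low counts, and Mycl did not. Levels are given as CPM, counts brought to a common library total, after scaling by the trimmed mean of M-values (TMM).

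The study asked whether Lmo2 expression confined to different blood cell types would still give T-ALL, and it sequenced the thymus of diseased mice beside healthy thymus. There were 14 libraries in 5 groups, from mice of mixed C57BL/6 and CBA background. The 4 WT libraries came from healthy mice of 4 months. In the 3 Rosa26-Lmo2+Sca1-Cre libraries, from mice of 9 months, Lmo2 was placed in the Rosa26 locus and opened by Cre recombinase under the Sca1 promoter of stem and progenitor cells. In the 4 Sca1-Lmo2 libraries, from mice of 7 or 8 months, the same promoter drove Lmo2 with a tdTomato reporter directly, so that expression follows the promoter. In the 2 Rosa26-Lmo2+Mb1-Cre libraries, from mice of 20 months, Cre was under the Mb1 (Cd79a) promoter of early B cells. The single Rosa26-Lmo2+Aid-Cre library, from a mouse of 22 months, had Cre under the Aid promoter of germinal-center B cells. Such mice were immunized with sheep red blood cells. Once Cre has acted, daughter cells inherit the open Rosa26 allele. The 3 groups with Cre are called Sca1-Cre, Mb1-Cre and Aid-Cre from here on. Age followed the group, so age and genotype cannot be told apart. The sample records give frozen thymus as the source and the methods describe leukemic blasts, so it is not known how pure the cells were. The study counts these libraries as mice, but the sample records name no animal for them, and p-values measure the spread between these libraries.

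MYC family proteins (c-MYC, N-MYC and L-MYC) are transcription factors that bind DNA only as a pair with MAX, at E-box sequences, and raise transcription of genes for ribosome building, nucleotide and amino acid supply and cell growth. The MXD proteins and MNT pair with the same MAX, bind the same E-boxes and recruit SIN3 and histone deacetylases to repress those genes. In developing T cells Myc is a direct target of NOTCH1, and high MYC is a common feature of T-ALL.

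The E-box that MYC-MAX and MXD-MAX dimers prefer reads CACGTG, which is the same on both strands. The promoters of 8 members were searched for it in RefSeq sequence of build GRCm38.p6, from 250 bases before to 50 bases after each annotated start. No window was present for Myc. It was found in 3 of the 10 member windows, 1 each for Max, Mxd4 and Mnt, against 2349 of all 32851 windows of that length (7.15%). These 3 are shown because they are genes of the network that hold the network's own motif. Each line is 280 bases, 5′ to 3′ on the gene's strand, up to 30 bases after the start, with the E-box in capitals. The match is a description of the letters and not a measured binding site.
Max, chr12:76962219-76962498, minus strand: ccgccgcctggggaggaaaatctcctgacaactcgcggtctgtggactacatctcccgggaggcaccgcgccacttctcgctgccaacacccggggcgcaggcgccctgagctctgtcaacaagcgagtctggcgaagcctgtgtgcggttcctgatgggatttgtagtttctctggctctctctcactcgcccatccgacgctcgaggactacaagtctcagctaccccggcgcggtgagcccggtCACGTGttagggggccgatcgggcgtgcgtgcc
Mxd4, chr5:34187681-34187960, minus strand: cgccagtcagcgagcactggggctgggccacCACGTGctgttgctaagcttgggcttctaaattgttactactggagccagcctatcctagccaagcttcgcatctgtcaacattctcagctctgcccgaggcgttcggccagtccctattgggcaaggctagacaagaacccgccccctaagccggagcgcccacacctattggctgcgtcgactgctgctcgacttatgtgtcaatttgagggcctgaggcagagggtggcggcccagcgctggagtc
Mnt, chr11:74830674-74830953, plus strand: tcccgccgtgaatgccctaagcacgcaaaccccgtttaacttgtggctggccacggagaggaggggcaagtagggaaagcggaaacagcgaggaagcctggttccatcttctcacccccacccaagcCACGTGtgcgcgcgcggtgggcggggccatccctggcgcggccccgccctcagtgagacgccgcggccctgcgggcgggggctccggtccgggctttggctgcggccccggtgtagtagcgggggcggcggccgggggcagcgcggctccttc
The E-box began 3 bases before the start of Max, 219 bases before that of Mxd4 and 123 bases before that of Mnt.

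Library totals ran from 42985130 to 47667663 counts, so before TMM scaling 1 CPM stood for about the same number of counts in every library. The TMM factors ran from 0.706 in Sca1-Cre replicate 2 to 1.23 in WT replicate 4. After scaling, 1 CPM therefore stood for fewer counts in the former library than in the latter. The T-cell gene Cd3e was at 138 to 375 CPM in all 14 libraries, and the 10 thymocyte markers were detected in every group, with a summed level of 9136 to 10530 CPM in WT and 2778 to 6546 CPM in the tumor libraries. Lmo2 was at 1.62 to 4.42 CPM in WT, 5.82 to 10.1 CPM in Sca1-Cre tumors and 10.2 to 17.5 CPM in Sca1-Lmo2. It was at 3.95 and 6.97 CPM in Mb1-Cre tumors and 22.1 CPM in the Aid-Cre library, and Mb1-Cre replicate 1 lay within the WT range. The study reported loss of Lmo2 in Sca1-Lmo2 tumor cells, by immunostaining and in sorted leukemic cells. How the level in these bulk libraries relates to that loss was not tested. The library labelled Sca1-Cre replicate 3 stood apart. It held 0.830 reads per kilobase over 8 long genes that are silent in thymus, against 0.159 to 0.325 in the other 13, and the values of the members without it are given where they are described. Sca1-Lmo2 replicates 1 and 3 were close to each other by the Pearson r of log2 CPM across genes (0.967, the highest in their group). By the median absolute log2 difference they were not the closest pair (0.411, against 0.314 for replicates 1 and 2). In such bulk samples fewer cells of a type and less RNA per cell cannot be told apart.

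Markers of other cells also differed between groups. The 8 thymic epithelium markers summed to 55.3 to 75.3 CPM in WT, 22.6 to 95.8 CPM in Sca1-Cre tumors, 10.7 to 39.0 CPM in Sca1-Lmo2, 21.9 to 30.6 CPM in Mb1-Cre tumors and 16.8 CPM in the Aid-Cre library. Of 7 tested, 3, 6 and 1 were lower in the 3 replicated tumor groups in that order, and Foxn1, which defines this epithelium, had no count in Sca1-Lmo2. The 6 myeloid markers summed to 85.02 to 158 CPM in WT, 286 to 419 CPM in Sca1-Cre tumors, 61.7 to 136 CPM in Sca1-Lmo2, 232 to 844 CPM in Mb1-Cre tumors and 352 CPM in the Aid-Cre library, with 3, 0 and 4 of 6 called higher. Of 7 tested stroma and endothelium markers, 6, 2 and 4 were higher and 1, 0 and 1 lower in the same order of groups. Of 7 dendritic cell markers 1, 5 and 1 were lower and none higher, and of 6 B-cell markers 1, 2 and 5. Of 4 tested erythroid markers, 1 was higher in each group. The part of these cell types in the results on the network was not tested.

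**Figure D1:**
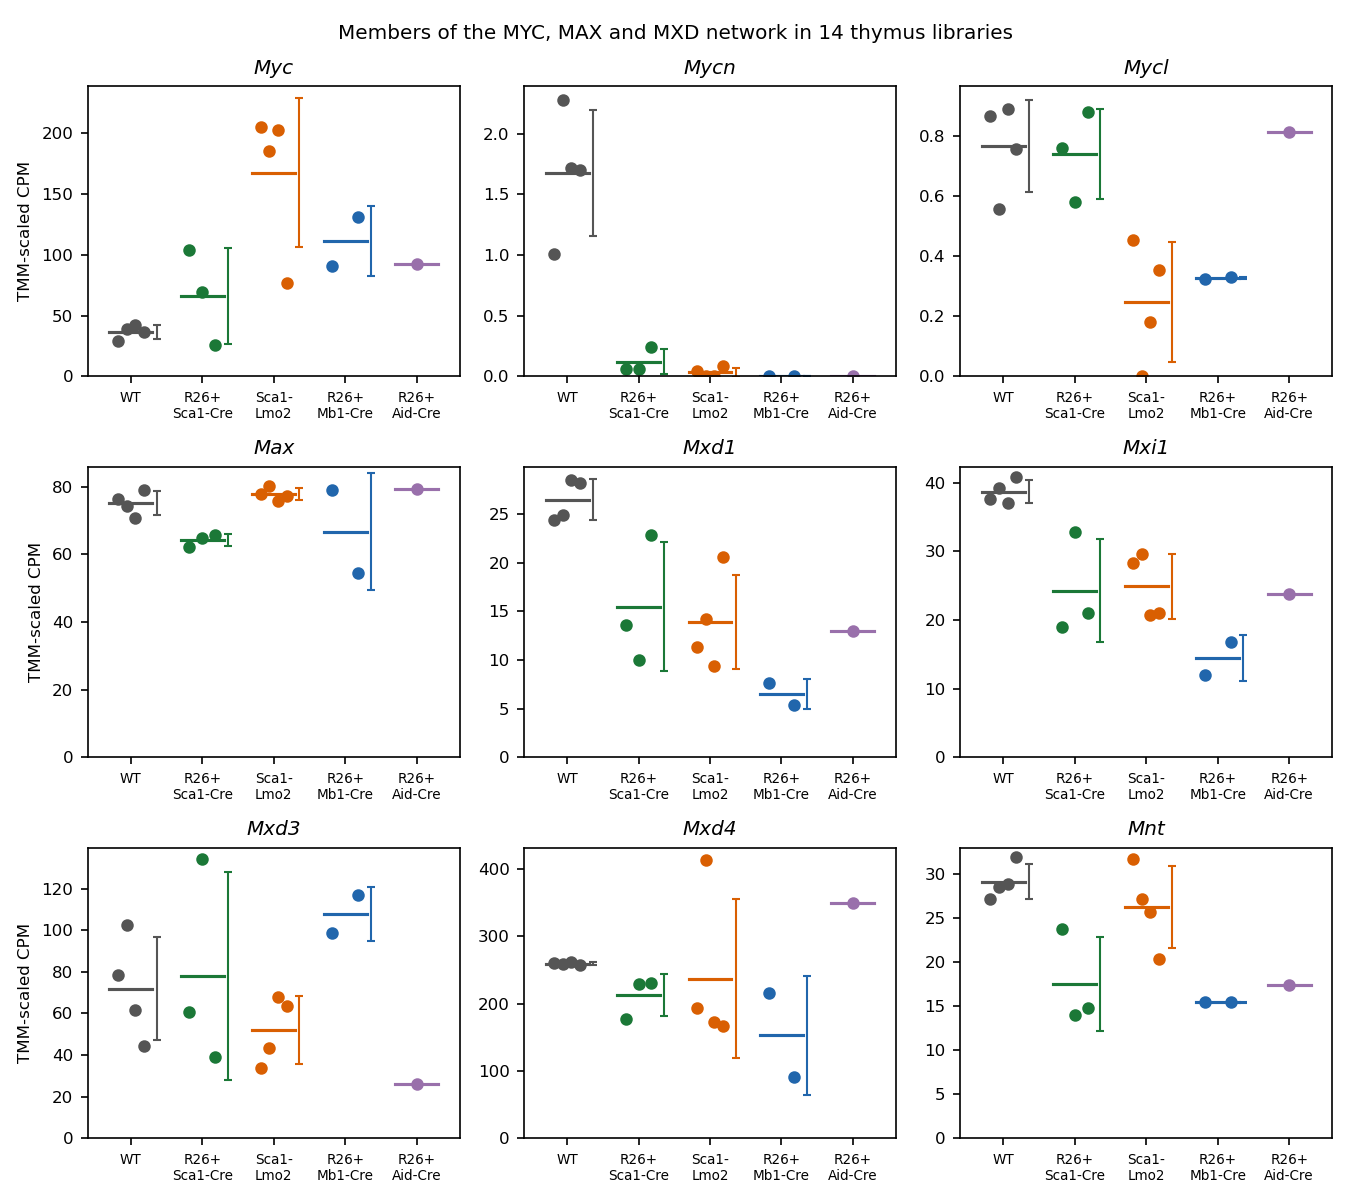
Level of each of the 9 members in TMM-scaled CPM (y axis, from 0, with its own scale in each panel) in the 14 libraries. Points are libraries, horizontal lines are group means and vertical bars are 1 SD (no bar for the single Aid-Cre library). R26 stands for the Rosa26-Lmo2 allele. Myc is above WT in all tumor libraries but Sca1-Cre replicate 3 (25.7 CPM), and Mxd1 and Mxi1 are below WT in all 10 tumor libraries.

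Myc, the member that encodes c-MYC (ENSMUSG00000022346, chr15:61985341-61990374, plus strand, mm10), was higher in 2 of the 3 replicated tumor groups. It was at 28.8, 39.1, 42.6 and 36.5 CPM in WT replicates 1 to 4. In Sca1-Lmo2 replicates 1 to 4 it was at 205, 186, 203 and 76.8 CPM, so that all 4 lay above every WT library and replicate 4 lay far below the other 3. The difference was 4.56-fold (log2 2.19 ± 0.41 SE; edgeR quasi-likelihood test, adjusted p = 0.00416), and Myc was called in each of the 16 alternatives tried, at log2 values of 1.98 or more.

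In Mb1-Cre tumors, Myc was at 90.7 and 132 CPM, again with no overlap with WT. It rose 3.02-fold there (log2 1.60 ± 0.46; adjusted p = 0.0192). That call rested in part on a single library, since without replicate 2 the log2 value was 1.31 and the adjusted p 0.160. In Sca1-Cre tumors, Myc was at 104, 69.1 and 25.7 CPM. Replicates 1 and 2 lay above WT and replicate 3, the library that stood apart, lay below it, so the groups overlapped and the test did not call Myc (log2 0.85 ± 0.42; adjusted p = 0.139). Without replicate 3 the log2 value was 1.24 and Myc was called (adjusted p = 0.0228). The Aid-Cre library held 92.4 CPM, between the means of the Mb1-Cre and Sca1-Cre groups and within the range of each, with no replicate to test it.

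Mycn encodes N-MYC, the family member known from early lymphoid and neural progenitors (ENSMUSG00000037169, chr12:12936096-12941914, minus strand). It was the member with the widest relative difference, and its direction was opposite to that of Myc. The WT libraries had 49, 115, 91 and 90 counts, or 1.01, 2.28, 1.72 and 1.70 CPM. Sca1-Cre had 2, 2 and 12 counts, Sca1-Lmo2 had 2, 0, 0 and 4, and the Mb1-Cre libraries and the Aid-Cre library had none. No tumor library reached the lowest WT library. The reads per kilobase over silent genes would give 0.925 to 4.83 counts over the span of Mycn, the highest of these in Sca1-Cre replicate 3, the library with 12 counts, so most tumor values lay near that background.

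Mycn fell in all 3 replicated groups by the edgeR test. Only the 4 WT libraries reached 1 CPM of the unscaled library, so Mycn passed the filter through the group where it was high. Its test could thus find only a fall, and its calls are a description. The log2 value was -3.72 ± 0.93 in Sca1-Cre tumors (adjusted p = 0.0173) and -5.61 ± 0.94 in Sca1-Lmo2 (adjusted p = 0.00325). In Mb1-Cre tumors, where no read was counted, Mycn was at least 21.1-fold lower than in WT with a floor of 3 counts per library (adjusted p = 0.00427), and in the Aid-Cre library at least 26.9-fold lower. These floors cover counting error only. The Sca1-Cre call was lost without replicate 1 (-3.39, adjusted p = 0.0532) and without replicate 2 (-3.44, adjusted p = 0.0548), and without replicate 3 the value was -4.74 (adjusted p = 0.0126).

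Mycl, which encodes L-MYC (ENSMUSG00000028654, chr4:122995652-123002485, plus strand), was near the limit of detection throughout. It reached 1 CPM of the unscaled library in 2 of 14 libraries and was not tested. WT libraries held 0.867, 0.555, 0.889 and 0.756 CPM, and the Sca1-Cre libraries 0.761, 0.578 and 0.877 CPM, within the WT range. The Sca1-Lmo2 libraries held 0.454, 0, 0.181 and 0.352 CPM and the Mb1-Cre libraries 0.324 and 0.329 CPM. These 6 values all lay below the lowest WT library, whereas the Aid-Cre library, at 0.811 CPM, did not.

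Max, the obligate partner of activators and repressors alike (ENSMUSG00000059436, chr12:76937269-76962248, minus strand), had the narrowest relative range of the members over the 14 libraries, from 54.4 to 80.3 CPM. It was at 76.3, 74.4, 70.6 and 79.0 CPM in WT, at 77.9, 80.3, 75.9 and 77.1 CPM in Sca1-Lmo2, at 79.0 and 54.4 CPM in Mb1-Cre tumors and at 79.3 CPM in the Aid-Cre library. The Sca1-Cre libraries were at 62.3, 64.7 and 65.7 CPM, all below WT. No comparison of Max with WT passed the test. The log2 values were -0.23 ± 0.15 in Sca1-Cre tumors (95% interval -0.52 to 0.07), 0.05 ± 0.14 in Sca1-Lmo2 (-0.22 to 0.32, and -0.14 without TMM) and -0.17 ± 0.17 in Mb1-Cre tumors (-0.50 to 0.16).

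Mxd1 (MAD1), a repressor that rises as cells leave the cycle and differentiate (ENSMUSG00000001156, chr6:86647042-86669161, minus strand), was lower in tumors. The WT libraries held 24.4, 24.9, 28.5 and 28.2 CPM. The Sca1-Lmo2 libraries held 11.4, 14.3, 9.44 and 20.6 CPM, the Mb1-Cre libraries 7.63 and 5.38 CPM, the Sca1-Cre libraries 13.7, 9.99 and 22.9 CPM, and the Aid-Cre library 12.98 CPM. All 10 tumor libraries lay below all 4 WT libraries, and the Mb1-Cre pair was lowest.

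Mxd1 fell to 0.246 of WT in Mb1-Cre tumors (log2 -2.03 ± 0.40; adjusted p = 0.00423) and to 0.525 of WT in Sca1-Lmo2 (-0.93 ± 0.30; adjusted p = 0.0421). It was not called in Sca1-Cre tumors (-0.77 ± 0.33; adjusted p = 0.0913), and there it was called without replicate 3 (-1.16, adjusted p = 0.0248). The Sca1-Lmo2 call was made in 5 of 16 alternatives. With a library left out it was kept only without Sca1-Lmo2 replicate 4 (-1.21, adjusted p = 0.0147). The Mb1-Cre call was lost only without replicate 2 (adjusted p = 0.0577) among its 13 alternatives.

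Mxi1 (MXI1, also called MAD2) is a further SIN3-binding repressor (ENSMUSG00000025025, chr19:53310506-53375810, plus strand). It was at 37.6, 39.3, 37.1 and 40.8 CPM in WT. It was at 19.0, 32.8 and 21.0 CPM in Sca1-Cre tumors, at 28.3, 29.6, 20.7 and 21.0 CPM in Sca1-Lmo2, at 12.0 and 16.8 CPM in Mb1-Cre tumors and at 23.8 CPM in the Aid-Cre library. As for Mxd1, no tumor library reached a WT library.

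The fall of Mxi1 was to 0.373 of WT in Mb1-Cre tumors (log2 -1.42 ± 0.28; adjusted p = 0.00396), and this call was kept in all 13 alternatives. In Sca1-Cre tumors (0.627 of WT; -0.67 ± 0.23; adjusted p = 0.0495) and in Sca1-Lmo2 (0.644 of WT; -0.64 ± 0.21; adjusted p = 0.0498) Mxi1 passed the threshold narrowly. These were called in 4 of 15 and 5 of 16 alternatives. With a library left out, the former was kept only without Sca1-Cre replicate 2 (-0.95, adjusted p = 0.0233), with a value of -0.58 without replicate 3 (adjusted p = 0.116), and the latter only without Sca1-Lmo2 replicate 2 (-0.73, adjusted p = 0.0439).

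Mnt, the broadly expressed repressor that balances MYC in resting and dividing cells alike (ENSMUSG00000000282, chr11:74830920-74845725, plus strand), was lower than WT in Sca1-Cre and Mb1-Cre tumors. The WT libraries held 27.2, 28.5, 28.8 and 31.9 CPM, and the Sca1-Lmo2 libraries 31.7, 27.2, 25.6 and 20.4 CPM, which overlapped WT. Sca1-Cre held 23.7, 14.0 and 14.8 CPM and Mb1-Cre tumors 15.5 and 15.4 CPM, all below WT, and the Aid-Cre library held 17.4 CPM. The 3 groups that carry the Rosa26 allele were thus below every WT library, and Sca1-Lmo2 was not. No difference in Mnt between tumor groups was called by edgeR's test.

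Mnt fell to 0.601 of WT in Sca1-Cre tumors (log2 -0.73 ± 0.22; adjusted p = 0.0320) and to 0.531 of WT in Mb1-Cre tumors (-0.91 ± 0.26; adjusted p = 0.0186). In Sca1-Lmo2 the log2 value was -0.15 ± 0.20 (95% interval -0.55 to 0.25; adjusted p = 0.628). The Mb1-Cre call was lost without either of its libraries (adjusted p = 0.0784 without replicate 1 and 0.114 without replicate 2). With a library left out, the Sca1-Cre call was kept without Sca1-Cre replicate 1 (-1.01, adjusted p = 0.0141) and without WT replicate 1 (adjusted p = 0.0461), and lost without each of the other 5 libraries (adjusted p = 0.0573 to 0.108). Among these, the value without Sca1-Cre replicate 3 was -0.62 (adjusted p = 0.0796).

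Mxd3 (MAD3) is the repressor expressed in dividing cells (ENSMUSG00000021485, chr13:55325168-55329758, minus strand). Its span shares 104 bases with the opposite-strand gene Prelid1, which had 2.50 to 5.04 times its counts, and reads were counted without strand, so its values are uncertain. It varied widely within groups, from 44.6 to 103 CPM in WT, 39.2 to 134 CPM in Sca1-Cre tumors and 33.8 to 68.0 CPM in Sca1-Lmo2, with 98.8 and 117 CPM in Mb1-Cre tumors and 25.9 CPM in the Aid-Cre library. The replicated groups all overlapped WT and none was called. The log2 values were 0.12 ± 0.40, -0.46 ± 0.37 and 0.59 ± 0.45 in Sca1-Cre tumors, Sca1-Lmo2 and Mb1-Cre tumors. The direction in Sca1-Cre tumors turned without TMM (-0.40).

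Mxd4 (MAD4), a repressor of differentiating cells (ENSMUSG00000037235, chr5:34173883-34187720, minus strand), had the most even WT level, at 261, 258, 262 and 257 CPM. The antisense gene Gm42846 lies inside its span and had 0.325 to 0.814 times its counts, so the values of Mxd4 are uncertain. With the counts of Gm42846 taken off, the WT libraries came to 78.3, 96.7, 160 and 157 CPM and were no longer even. With all counts kept, Sca1-Cre held 178, 230 and 232 CPM, Sca1-Lmo2 194, 414, 174 and 168 CPM, Mb1-Cre tumors 216 and 90.7 CPM and the Aid-Cre library 350 CPM. On these values Sca1-Lmo2 replicate 2 and the Aid-Cre library lay above WT and the other 8 tumor libraries below it. With the counts of Gm42846 taken off, Sca1-Cre came to 33.0, 45.0 and 72.7 CPM and Sca1-Lmo2 to 131, 264.5, 54.3 and 58.0 CPM. Mb1-Cre tumors then came to 54.9 and 23.4 CPM and the Aid-Cre library to 187 CPM. Sca1-Lmo2 replicate 1 then lay within the WT range, and these values were not tested. With all counts kept no comparison was called, at log2 -0.29 ± 0.35, -0.13 ± 0.32 and -0.76 ± 0.41 in the same order of groups. Without Mb1-Cre replicate 1 the last of these was -1.51 and was called (adjusted p = 0.0447).

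**Figure D2:**
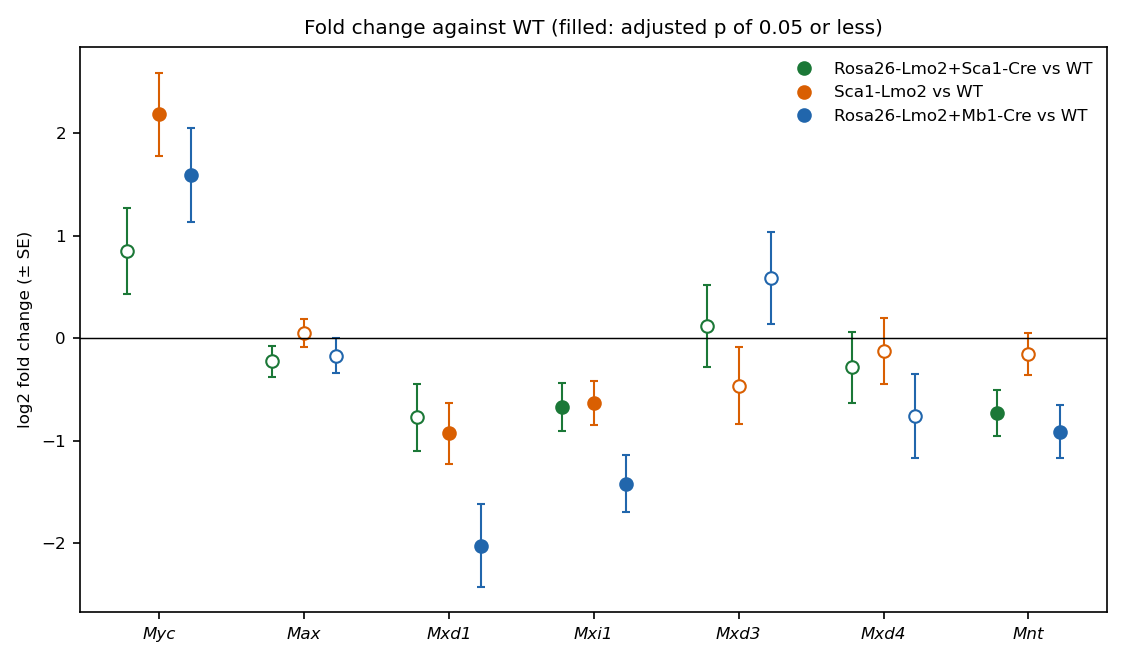
log2 fold change against WT (y axis) of the 7 members other than Mycn and Mycl, in the 3 replicated tumor groups. Bars are 1 SE and filled points have an adjusted p of 0.05 or less in edgeR's quasi-likelihood test. Myc lies above 0 and Mxd1 and Mxi1 below 0 in all 3 groups, while Max lies near 0 (-0.23 to 0.05).

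Counted over the network, 3 of the 8 tested members were called in Sca1-Cre tumors against WT (Mycn, Mxi1 and Mnt), all lower, where 26.9% of all 17087 tested genes were called and 10.4% were called lower. Its libraries lay wholly below WT for 6 members, against 19.7% of genes, and above WT for none, against 17.7%. Without TMM the median of all genes moved to log2 -0.34 in this comparison, from 0.06 with it. In Sca1-Lmo2 against WT 4 members were called, with Myc higher and Mycn, Mxd1 and Mxi1 lower, where 22.3% of genes were called, 12.1% higher and 10.2% lower. Its libraries lay above WT for 1 member and below it for 3, against 15.7% and 16.9% of genes. In Mb1-Cre tumors against WT 5 were called, with Myc higher and Mycn, Mxd1, Mxi1 and Mnt lower, where 35.1% of genes were called, 19.7% higher and 15.4% lower. Its libraries lay above WT for 1 member and below it for 5, against 30.9% and 32% of genes. The median log2 value of the 8 members was -0.48, -0.31 and -0.84 in the 3 comparisons, beside 0.06, 0.05 and -0.01 for all genes. The comparisons share the WT libraries, so their calls are not independent of each other. Mycn is among the members called lower and lying below WT in each, and it passed the filter only through the WT libraries.

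The replicate numbers of WT and Sca1-Cre tumors were taken as pairs by the rule used here, though some differently numbered libraries deviated together as much. With the number as a block no member was called in that comparison. The adjusted p was then 0.0630 for Mycn, 0.0715 for Mxi1 and 0.0716 for Mnt, and 1363 genes were called in place of 4589.

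The tumor groups were also compared with each other. No member was called in any of these 3 comparisons by edgeR's test, where 9.89% of genes were called in Sca1-Lmo2 against Sca1-Cre tumors, 0.211% in Mb1-Cre tumors against Sca1-Cre tumors and 10.5% in Mb1-Cre tumors against Sca1-Lmo2. An unadjusted p under 0.05 was seen for 2, 3 and 4 members, and DESeq2 called 1, 1 and 3. A p that misses the threshold does not show equal levels. Myc was higher in Sca1-Lmo2 than in Sca1-Cre tumors by log2 1.34 ± 0.43 (95% interval 0.49 to 2.19; adjusted p = 0.0673), a value that was called in 5 of 15 alternatives. Myc in Mb1-Cre tumors against Sca1-Lmo2 was at log2 -0.59 ± 0.49 (-1.55 to 0.36; adjusted p = 0.412).

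Mxd1, Mxi1 and Mnt were lower in the Mb1-Cre libraries than in Sca1-Lmo2, though none of these differences was called. Against Sca1-Lmo2 the log2 value was -1.10 ± 0.38 for Mxd1 (95% interval -1.85 to -0.35; adjusted p = 0.0774), -0.79 ± 0.27 for Mxi1 (-1.32 to -0.26; adjusted p = 0.0728) and -0.76 ± 0.26 for Mnt (-1.27 to -0.26; adjusted p = 0.0710). For all 3 the Mb1-Cre libraries lay below all Sca1-Lmo2 libraries, as did the libraries for 19.4% of genes. Against Sca1-Cre tumors, Mxd1 was at -1.25 ± 0.40 (-2.04 to -0.47; adjusted p = 0.138) and Mxi1 at -0.75 ± 0.28 (-1.30 to -0.20; adjusted p = 0.194), again with no overlap, as for 14.7% of genes. Mnt was at -0.18 ± 0.26 there (-0.70 to 0.34; adjusted p = 0.776). Mxd3, whose counts are uncertain, was instead highest in the Mb1-Cre group, with both libraries above all Sca1-Lmo2 libraries (log2 1.05 ± 0.44; 95% interval 0.19 to 1.92; adjusted p = 0.126).

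In the order of group means, Myc ran from Sca1-Lmo2 (168 ± 61.1 CPM, SD, n = 4) through Mb1-Cre tumors (111 ± 28.9 CPM, n = 2), the Aid-Cre library and Sca1-Cre tumors (66.3 ± 39.3 CPM, n = 3) to WT (36.8 ± 5.85 CPM, n = 4). Each group overlapped its neighbor in that order. Mxd1 was highest in WT (26.5 ± 2.15 CPM) and lowest in Mb1-Cre tumors (6.51 ± 1.59 CPM), and so was Mxi1 (38.7 ± 1.70 and 14.4 ± 3.35 CPM). Their order was not the reverse of that of Myc, since Sca1-Lmo2, the highest in Myc, was the lowest in neither. For both, WT and the Mb1-Cre group were each separated from their neighbor and the groups in between overlapped. Without TMM the order of the 5 groups stayed as it was for Mycn, Mycl and Mxd4 and changed for the other 6.

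Levels were set against each other per kilobase of exon. In WT the 2 highest members were Mxd4 (30.6 CPM per kilobase) and Mxd3 (30.3), both uncertain for their overlaps, followed by Max (20.9), Myc (13.5), Mnt (6.29), Mxi1 (5.67), Mxd1 (3.75), Mycn (0.509) and Mycl (0.190). In Sca1-Lmo2 Myc stood first, at 61.7 ± 22.5 CPM per kilobase (SD, n = 4), above Mxd4 at 28.0 and Max at 21.6. Myc followed Mxd3 in Mb1-Cre tumors (40.9) and Mxd4 in the Aid-Cre library (34.01), and came after Mxd3 and Mxd4 in Sca1-Cre tumors (24.4). The deposited counts cover introns too, and per kilobase of the whole span the rank of 4 of the 9 members in WT changed, with Myc above Max there (7.30 and 3.01 CPM per kilobase of span) and first again in Sca1-Lmo2 (33.3). Mycn was 2.76% to 4.54% of the summed MYC family level in WT and no more than 0.745% in any tumor library.

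The ratio of Myc to the summed level of the 5 repressors, both per kilobase, was 0.135, 0.161, 0.216 and 0.204 in WT. It was 1.52, 0.862, 1.26 and 0.497 in Sca1-Lmo2, 0.455 and 0.726 in Mb1-Cre tumors, 0.681, 0.274 and 0.177 in Sca1-Cre tumors and 0.555 in the Aid-Cre library. All tumor libraries but Sca1-Cre replicate 3 lay above every WT library. With the uncertain Mxd4 left out the ratio was 0.221 to 0.377 in WT, 0.762 to 2.81 in Sca1-Lmo2, 0.697 and 0.865 in Mb1-Cre tumors, 0.363 to 1.08 in Sca1-Cre tumors and 1.70 in the Aid-Cre library. Mxd3, whose counts are also uncertain, stayed in that sum. It made up 33.1 of 47.9 CPM per kilobase in WT replicate 1 and 49.4 of 56.0 in Mb1-Cre replicate 2. No ratio without both genes is given. Per kilobase of span the ratio was 0.145 to 0.234 in WT and 0.535 to 1.66 in Sca1-Lmo2, and Sca1-Cre replicate 3, at 0.185, was the tumor library that did not lie above WT. These ratios carry the same counts as the single genes and are a description, and RNA levels do not give the protein balance.

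**Figure D3:**
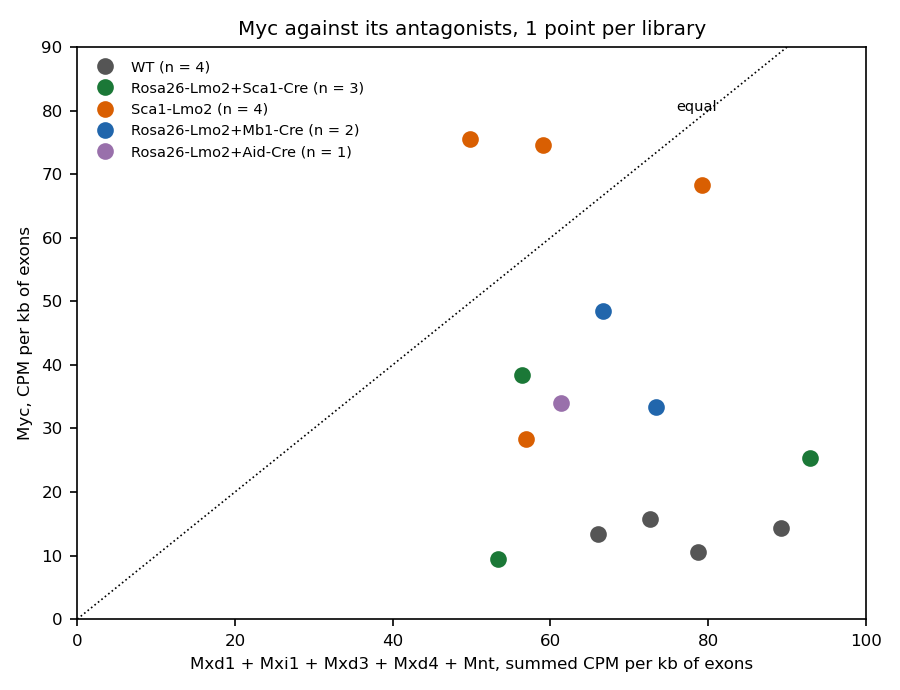
Myc (y axis) against the sum of Mxd1, Mxi1, Mxd3, Mxd4 and Mnt (x axis), both in TMM-scaled CPM per kilobase of exon, with 1 point per library, colored by group, and a dotted line where they are equal. Of the 4 Sca1-Lmo2 points, 2 lie above the line (ratios 1.52 and 1.26), and all WT points lie low, between ratios of 0.135 and 0.216.

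The wider network was then counted from lists of genes drawn up from general knowledge. The counts are to be read against all genes tested, of which 16.5%, 12.1% and 19.7% were called higher and 10.4%, 10.2% and 15.4% lower in Sca1-Cre tumors, Sca1-Lmo2 and Mb1-Cre tumors. Of the extended MAX and MLX network, 3 of 4 genes were tested and none was called in any comparison with WT by edgeR's test, where 1, 1 and 2 were lower at an unadjusted p under 0.05. Without TMM, 2 were called lower in Sca1-Cre tumors and 1 in Mb1-Cre tumors, and DESeq2 and the fit of only the 2 groups each called 2 lower in Mb1-Cre tumors. With a library left out, 1 was called lower in Sca1-Lmo2 without its replicate 2 and 1 in Mb1-Cre tumors without WT replicate 1. Mga, which pairs with MAX to repress, had log2 values of -0.70 ± 0.32, 0.06 ± 0.29 and -0.94 ± 0.37 in Sca1-Cre tumors, Sca1-Lmo2 and Mb1-Cre tumors (adjusted p = 0.114, 0.901 and 0.0644). Of 21 cofactors of MYC or regulators of its turnover, 1 was higher and 4 lower in the first, 2 higher and 1 lower in the second and 3 higher and 6 lower in the third, with median log2 values of -0.46, -0.03 and -0.33. The shares called, 23.8%, 14.3% and 42.9%, stood beside 26.9%, 22.3% and 35.1% of all genes. Without TMM none was higher and 9 were lower in Sca1-Cre tumors, with the replicate block none and 1, and without replicate 3 of that group 2 and 5. Without Mb1-Cre replicate 2, 1 was higher and 1 lower in Mb1-Cre tumors.

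Ruvbl1, an ATPase that binds MYC, rose in all 3 comparisons, at 47.5 ± 9.51 CPM in WT (SD, n = 4) and log2 0.74 ± 0.20, 1.12 ± 0.19 and 1.38 ± 0.22 (adjusted p = 0.0195, 0.00256 and 0.00168). In Sca1-Cre tumors that call was made in 8 of 15 alternatives, held without replicate 3 (0.86, adjusted p = 0.0126) and was lost with the replicate block (0.73, adjusted p = 0.0603). Fbxw7, the ubiquitin ligase subunit that marks MYC and NOTCH1 for destruction, fell in all 3, at -0.68 ± 0.21, -0.60 ± 0.19 and -1.08 ± 0.24 (adjusted p = 0.0320, 0.0412 and 0.00693), but another gene overlaps it and its counts are uncertain. Its calls were made in 6 of 15, 7 of 16 and 12 of 13 alternatives, and in Sca1-Cre tumors the call was lost without replicate 3 (-0.61, adjusted p = 0.0730) and with the block (adjusted p = 0.0910). Pim1, a kinase that phosphorylates MYC, fell in Sca1-Cre tumors (-1.47 ± 0.33) and Mb1-Cre tumors (-1.95 ± 0.39), and is uncertain for the same reason as Fbxw7. So is Sin3a, the corepressor that MXD proteins and MNT recruit, which fell in the same groups (-0.75 ± 0.18 and -0.63 ± 0.21). Without Sca1-Cre replicate 3 the Sca1-Cre values were -1.12 for Pim1 and -0.73 for Sin3a, both called, and with the block Sin3a was not (adjusted p = 0.0603). The Mb1-Cre call of Sin3a was made in 6 of 13 alternatives.

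Genes that MYC is known to activate were mostly called higher in Sca1-Lmo2 and Mb1-Cre tumors. Of the 34 on the list, all tested, 24 rose and none fell in Sca1-Lmo2, with a median log2 value of 1.22 beside 0.05 for all genes. In Mb1-Cre tumors 28 rose and 1 fell (median 1.59 beside -0.01), and in Sca1-Cre tumors 7 rose and none fell (median 0.64 beside 0.06). The shares that rose were 70.6% in Sca1-Lmo2 and 82.4% in Mb1-Cre tumors, beside 12.1% and 19.7% of all genes. In Sca1-Cre tumors the share was 20.6%, near the 16.5% of all genes. The Mb1-Cre count was lower without replicate 2 than without replicate 1, and so was the count of calls over all genes. Either fit leaves 1 library in that group. The Sca1-Cre count was 15 without replicate 3, 3 without TMM, when 1 fell, 2 without WT replicate 4 and 1 with the replicate block. Calls over all genes, in either direction, were 4589 in the fit as reported. They were 4959, 4546, 1969 and 1363 in these alternatives in that order. The list was drawn up with earlier results of these data known and its count is a description.

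Cad, which starts pyrimidine synthesis, rose from 24.1 ± 5.83 CPM in WT (SD, n = 4) to 104 ± 36.8 CPM in Sca1-Lmo2 (n = 4; log2 2.11 ± 0.27; adjusted p = 7.6e-04) and to 97.5 ± 9.56 CPM in Mb1-Cre tumors (n = 2; 2.02 ± 0.30; adjusted p = 0.00151). Hk2, a hexokinase of glycolysis, rose from 2.24 ± 0.34 CPM to 16.3 ± 4.03 CPM in Sca1-Lmo2 (2.87 ± 0.42; adjusted p = 0.00157). Odc1 and Srm make polyamines. Odc1 was at 53.7 ± 6.40 CPM in WT and 218 ± 71.3 CPM in Mb1-Cre tumors (2.02 ± 0.28; adjusted p = 0.00107), and Srm at 17.5 ± 3.37 and 129 ± 76.4 CPM (2.88 ± 0.42; adjusted p = 0.00147). In Sca1-Cre tumors the nucleolar methyltransferase gene Fbl had the smallest adjusted p of the list (92.2 ± 22.6 CPM in WT, 267 ± 107 CPM, n = 3; 1.53 ± 0.33; adjusted p = 0.0104), and it was 1.84 without replicate 3 (adjusted p = 0.00351). Polr1b, a subunit of the polymerase that makes ribosomal RNA, rose in Sca1-Lmo2 from 14.3 ± 1.05 to 34.3 ± 5.47 CPM (1.27 ± 0.17; adjusted p = 0.00105). Slc7a5, Gnl3 and Cdk4 were also among the strongest calls and share reads with overlapping genes. The 1 gene that fell was Ccnd2, cyclin D2, from 48.02 ± 10.7 CPM to 0.741 ± 0.264 CPM in Mb1-Cre tumors (-6.02 ± 1.65; adjusted p = 0.0160).

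**Figure D4:**
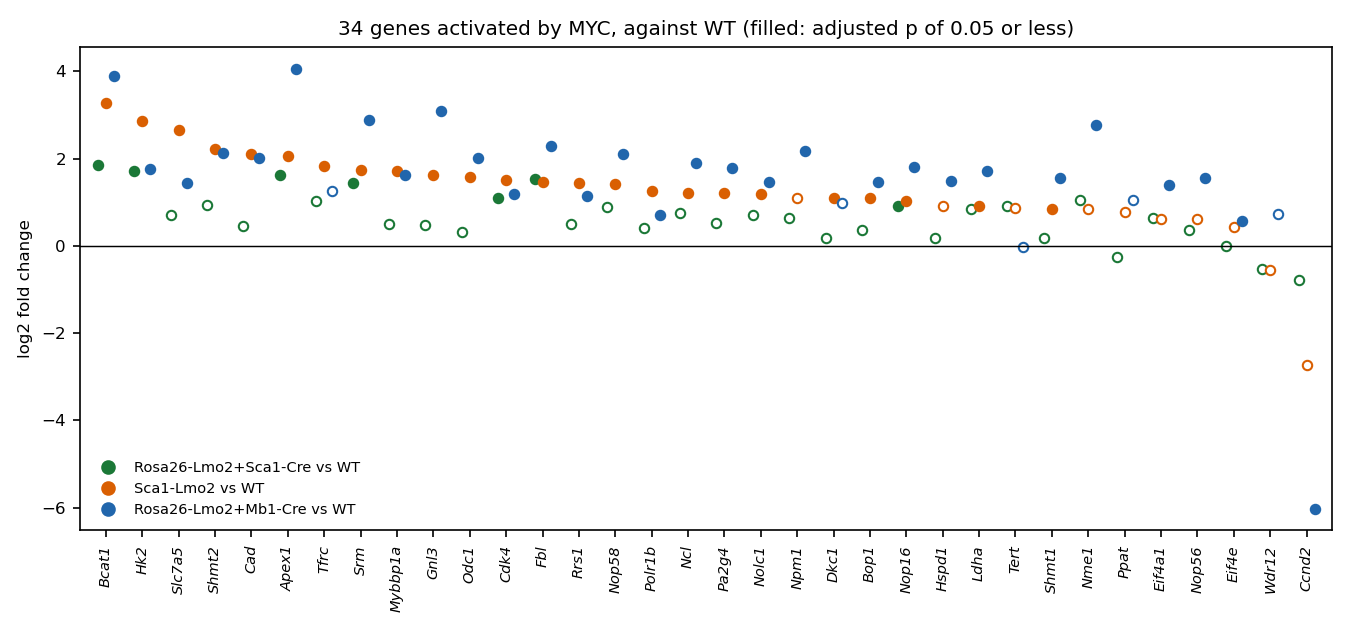
log2 fold change against WT (y axis) of the 34 genes known to be activated by MYC (x axis, ordered by the value in Sca1-Lmo2), in the 3 replicated tumor groups. Filled points have an adjusted p of 0.05 or less in edgeR's quasi-likelihood test. Of the 34, 24 points are filled above 0 in Sca1-Lmo2, 28 in Mb1-Cre tumors and 7 in Sca1-Cre tumors, and Ccnd2 is the only gene with a filled point below 0.

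Of 5 genes that MYC represses, 1 rose and 1 fell in Sca1-Cre tumors, 1 fell in Sca1-Lmo2, and 1 rose and 2 fell in Mb1-Cre tumors. Cdkn1b, the cell cycle inhibitor p27, fell in all 3, from 159 ± 30.2 CPM in WT to 58.9 ± 25.8, 65.9 ± 28.8 and 30.9 ± 8.63 CPM (log2 -1.43 ± 0.36, -1.27 ± 0.32 and -2.36 ± 0.44; adjusted p = 0.0154, 0.0160 and 0.00313), and it was -1.23 in the first without replicate 3 (adjusted p = 0.0377). The member that rose was Cdkn2b, the inhibitor p15, from 0.207 ± 0.152 CPM in WT (log2 3.16 ± 0.76 in Sca1-Cre tumors and 2.67 ± 0.81 in Mb1-Cre tumors). In Sca1-Cre tumors it was 2.63 without replicate 3 (adjusted p = 0.0299) and was not called with the block (adjusted p = 0.0586). The Mb1-Cre call was made in 6 of 12 alternatives. With so low a level in WT, Cdkn2b passed the filter on low counts only through tumor libraries. Its test could thus find only a rise, and its calls are a description. Gadd45a, a stress response gene with uncertain counts, fell in Mb1-Cre tumors (-1.46 ± 0.47), a call made in 6 of 13 alternatives.

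Upstream of Myc, in the NOTCH1 pathway and among T-cell factors, 5, 5 and 4 of 10 genes were higher and 1, 0 and 1 lower in Sca1-Cre tumors, Sca1-Lmo2 and Mb1-Cre tumors, beside the shares of all genes given above. Without Mb1-Cre replicate 1 the last count fell from 4 to 2 higher, and the median log2 value from 1.28 to 0.46. Hes1, a NOTCH target, rose from 1.97 ± 0.37 CPM in WT by log2 5.55 ± 0.68, 5.11 ± 0.66 and 4.19 ± 0.68 (adjusted p = 0.00132, 7.9e-04 and 0.00187), and the first was 5.99 without Sca1-Cre replicate 3. Heyl, Dtx1 and Notch1 itself, the last with uncertain counts, were the other strongest calls in each group. Of 10 cell division genes, 0, 3 and 1 were higher and none lower by edgeR's test. In Sca1-Cre tumors 3 were lower at an unadjusted p under 0.05, and 4 were called lower without TMM, 2 by DESeq2, 2 without the filter and 1 without either replicate 2 or replicate 3. The 3 called in Sca1-Lmo2 were Mcm2 and Mcm5, of the replication helicase, and the cell cycle factor E2f1 (log2 1.14 ± 0.23, 1.12 ± 0.26 and 1.17 ± 0.26).

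On chromosome 15, 38 tested genes lie within 5 Mb of Myc. Their median log2 values were -0.09, 0.19 and 0.05 in Sca1-Cre tumors, Sca1-Lmo2 and Mb1-Cre tumors, with 7, 7 and 7 higher and 2, 1 and 2 lower. A count of 7 is 18.4% of these genes, beside 16.5%, 12.1% and 19.7% of all genes. Pvt1, the long non-coding RNA gene next to Myc, rose in all 3, from 3.96 ± 0.42 CPM in WT by log2 1.59 ± 0.44, 1.502 ± 0.42 and 2.90 ± 0.49 (adjusted p = 0.0233, 0.0244 and 0.00208). These calls were made in 7 of 15, 8 of 16 and 13 of 13 alternatives, and the first was kept without Sca1-Cre replicate 3 (1.70, adjusted p = 0.0262) and lost with the block (1.27, adjusted p = 0.0669). Over all 602 tested genes of the chromosome the medians were 0.17, 0.46 and 0.34. In single Sca1-Lmo2 libraries, the median of the chromosome less that of all genes was 0.45, 0.04, 0.53 and 0.53 in replicates 1 to 4. Myc was at 205, 186, 203 and 76.8 CPM in these. For the genes within 5 Mb of Myc the same difference was 0.51, 0.08, 0.34 and 0.03. Over the whole chromosome it was 0.35 and 0.18 in Mb1-Cre tumors, 0.01, 0.39 and -0.03 in Sca1-Cre tumors, -0.04 in the Aid-Cre library and between -0.03 and 0.06 in WT. Within 5 Mb it was 0.04 and 0.12 in Mb1-Cre tumors, -0.39, 0.21 and -0.16 in Sca1-Cre tumors and 0.09 in the Aid-Cre library. How these shifts relate to the level of Myc was not tested.

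The genes whose log2 levels were most like that of Myc over the 14 libraries, among 9178 with a sufficient mean level, were Prmt3, an arginine methyltransferase of a ribosomal protein (Pearson r = 0.975), Fasn, fatty acid synthase (0.961), Pabpc4 (0.961), Wdr77 (0.957) and Mybbp1a (0.949). Over the 10 tumor libraries alone Prmt3 again came first (0.967). The closest gene was Dgke for Mycn (0.964), Cnnm3 for Mnt (0.966), Pex5 for Mxd1 (0.953), Yipf4 for Mxi1 (0.944), H2afv for Mxd3 (0.929), Ppp2r1b for Max (0.858) and Slc2a9 for Mxd4 (0.852). These values are a description of 14 libraries that share their group structure, chosen as the highest of many, and carry no test.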

How the data were processed

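RNA was sequenced in 4 WT and 10 tumor libraries from mouse thymus. Per the labels and the study's methods, libraries were non-stranded and paired-end, bcl2fastq made the reads, and TopHat2 2.1.0 aligned them to mm10 (GRCm38). The deposited values are raw counts per gene that the authors made with bamsignals over the whole span of each gene, so intronic reads and reads of overlapping genes are counted too. Totals were 42985130 to 47667663 counts. Exon lengths came from GENCODE annotation that held 98.95% of the gene IDs, and 2 repeated lines were dropped.

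The 17087 genes that reached 1 CPM in 3 or more of the 14 libraries were tested with edgeR 4.0.16 in R 4.3.3, in a single quasi-likelihood fit on the counts with TMM scaling and a mean per group. P-values were two-sided and Benjamini-Hochberg adjusted over the 17087 genes, and a call was an adjusted p of 0.05 or less. The SE is the log2 value over the square root of F, and intervals are 1.96 SE to each side. The Aid-Cre library entered the fit and no test. Floors are 3 counts per library. Silent genes, overlaps, ratios and Pearson r (log2 of CPM plus 0.5) are descriptions. Alternatives were DESeq2 1.42.0, limma-voom 3.58.1, other scaling, no filter, only the 2 groups in the fit, a replicate block, merged near-alike libraries and each library left out. The edgeR fit of the comparisons with WT was tested on simulated counts.

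Replicate numbers are in the sample titles. Same-numbered WT and Sca1-Cre libraries deviated together from their group means (r = 0.128, 0.169 and 0.121), so the numbers were taken to pair them. No record names a shared litter or day. Differently numbered libraries of these groups gave r from -0.251 to 0.261, the highest for WT replicate 4 with Sca1-Cre replicate 3. The values therefore do not establish a pairing. In other comparisons r ran from -0.459 to 0.185, with no pairing.

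All 9 members were named in every library. From each list the counts were given, and names were drawn from the 4 called genes of smallest adjusted p. Members and lists were chosen with earlier results of these data known.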

Additional observations from a re-analysis of the deposited data

Results flagged for a closer look

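Of 18 groups of 4 libraries checked, 2 held a library far from the other 3, where chance marks about 1 in 20 groups. Myc in Sca1-Lmo2 replicate 4 was the lowest of its group at 76.83 CPM, and the gap to the next library was 0.849 of the whole range. Mxd4 in Sca1-Lmo2 replicate 2 was the highest of its group at 414.0 CPM, with a gap of 0.891 of the range.

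The single Aid-Cre library entered no comparison. Its Myc level, 92.41 CPM, lay above the highest WT library, at 42.59 CPM. Its Mxd4 level, 350.3 CPM, lay above the highest WT library, at 261.6 CPM. Its Max level, 79.28 CPM, lay just above the highest WT library, at 79.01 CPM. None of these differences was tested.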

How the results depend on the processing

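Of 677 member fold changes under the alternatives, 592 kept their direction and side of the threshold, 52 lost a call, 14 gained one and 19 turned direction, none of the last called.

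The number of members called moved as follows. In Sca1-Cre tumors against WT it was 3, and 1 without the filter, 1 with only the 2 groups, 0 with the replicate block, 0 with the block in only the 2 groups (a fit chosen after seeing the data), and 1 to 3 with a library left out. In Sca1-Lmo2 against WT it was 4, and 2 without the filter, 2 with the replicate block, 2 with replicates 1 and 3 merged, and 2 to 3 with a library left out. In Mb1-Cre tumors against WT it was 5, 4 with the block, and 2 to 5 with a library left out. In Sca1-Lmo2 against Sca1-Cre tumors it was 0, and 1 in each of DESeq2, no TMM and no filter, and 0 to 2 with a library left out. In Mb1-Cre tumors it was 0, and 1 by DESeq2, against Sca1-Cre tumors, and 0, 3 by DESeq2 and 1 without TMM, against Sca1-Lmo2.

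Over all genes, Sca1-Cre tumors against WT gave 4589 calls, 1363 with the replicate block, 720 with the block in only the 2 groups and 1969 to 4959 with a library left out. Sca1-Lmo2 against WT gave 3815, 2526 with the replicate block, 2540 merged and 2223 to 3840 with a library left out. Mb1-Cre tumors against WT gave 6001, 3187 with the replicate block and 1598 to 5471 with a library left out. Sca1-Lmo2 against Sca1-Cre tumors gave 1690, 3603 by DESeq2, 1070 by voom, 3902 without the filter, 9 with only the 2 groups, 8 with the replicate block, 776 merged and 341 to 2129 with a library left out. Mb1-Cre tumors against Sca1-Cre tumors gave 36, 1333 by DESeq2, 0 with DESeq2 size factors, 12 without TMM, 1 by voom, 159 without the filter, 0 with only the 2 groups, 0 with the replicate block and 1 to 241 with a library left out. Mb1-Cre tumors against Sca1-Lmo2 gave 1800, 3981 by DESeq2, 956 without TMM, 866 by voom, 3 with only the 2 groups, 2 with the replicate block, 1001 merged and 17 to 1866 with a library left out. The share of calls that were higher was 61.5%, 54.3% and 56.0% in the 3 comparisons with WT and 34.9%, 44.0% and 33.9% without TMM, where the median of all genes moved to log2 -0.34, -0.14 and -0.46. Apart from the fits with fewer libraries or genes, the cause was not tested.

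The values that turned direction are given here, with the range over libraries left out. For Mxd3 in Sca1-Cre tumors against WT they were -0.40 without TMM, -0.00364 by voom, -0.0001997 with the replicate block and -0.19 with the block in only the 2 groups, and -0.52 to 0.44 with a library left out. Max in Sca1-Lmo2 against WT was -0.14 without TMM. With a library left out, Max in Mb1-Cre tumors ran from -0.46 to 0.0752 against WT, from -0.51 to 0.0244 against Sca1-Lmo2 and from -0.24 to 0.30 against Sca1-Cre tumors. In Sca1-Lmo2 against Sca1-Cre tumors, Mxi1 ran from -0.12 to 0.31, Mxd1 from -0.41 to 0.23, Mxd3 from -0.91 to 0.0604 and Mxd4 from -0.25 to 0.28. In Mb1-Cre against Sca1-Cre tumors, Mnt ran from -0.32 to 0.10 and Mxd4 from -1.23 to 0.0193.

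Myc in Mb1-Cre tumors lost its call without TMM (log2 1.10) and with the replicate block (1.27; adjusted p = 0.119). Groups of 2 to 4 libraries and a single Aid-Cre library limit all comparisons, and Mycn and Mycl, with few or no counts in tumors, are limited by depth.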
